A study of Bos taurus with 14 samples.

Results

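The pyruvate dehydrogenase complex and the enzymes that switch it off and on were followed in *M. longissimus dorsi* (LD) muscle, the large muscle along the back that gives the loin cuts, of 14 Charolais × Limousin crossbred heifers. The genes are the 5 subunit genes *PDHA1*, *PDHB*, *DLAT*, *PDHX* and *DLD*, the inhibiting kinases *PDK2*, *PDK3* and *PDK4*, and the activating phosphatases *PDP1* and *PDP2*. They were taken by name, as every probe set whose only gene symbol in the array annotation is one of them, which gave 9 genes and 19 probe sets. The tenth gene, *PDP2*, rests on 1 probe set that the study names so and the annotation does not list, which makes 10 of the 9156 genes named on the array and 20 of its 24016 probe sets. Animals of the outdoor/pasture-fed group (7) lived on grazed grass and clover, and those of the indoor/concentrate-fed group (7) were kept inside and fed concentrate with straw. Diet and housing differ together between these groups and cannot be told apart. The study managed the cattle of each system in several groups and does not assign the 14 animals to them, so each animal was taken as an independent sample in the tests. Muscle was taken within 20 min of slaughter, and RNA of each animal was read on 1 Affymetrix GeneChip Bovine Genome Array. All values are log2 expression levels, and a positive difference means a higher level at pasture.

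Pyruvate dehydrogenase sits on the inner side of the mitochondrial membranes and turns pyruvate, the end product of glycolysis, into acetyl-CoA for the tricarboxylic acid cycle. The complex is built from a decarboxylase (E1), an acetyltransferase core (E2), a lipoamide dehydrogenase (E3) and a protein that tethers E3 to the core. Pyruvate dehydrogenase kinases phosphorylate E1 and shut the complex down, which in muscle spares glucose when fatty acids are burned, and pyruvate dehydrogenase phosphatases remove the phosphate and open it again. Messenger RNA levels, the only measure given here, do not show the phosphorylation state.

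Of the 20 probe sets, 3 were listed at almost the same value on every array, with a standard deviation (SD) under 0.01, and were set apart. These are 1 of the 4 probe sets of *PDHA1*, 1 of the 3 of *PDHB* and the sole probe set of *PDK3*, whose value is 6.54 on all 14 arrays. The other 17 cover 9 genes and are called informative here. Of all probe sets, 40.1% vary in this sense. The *PDHA1* probe set that was set apart still differed by 9.9e-04, higher at pasture like the other *PDHA1* probe sets. Its unadjusted p was 0.00405 in limma and its exact permutation p was 0.00583, and it is in none of the counts over the 17. The smallest SD within a group among the 17 was 0.05, for *PDK4*.

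In the muscle of outdoor/pasture-fed cattle, the 5 subunits, *PDK2* and *PDP1* had slightly higher means, *PDK4* was close to level, and the probe set named *PDP2* was lower. No probe set of the 20 passed an adjusted p of 0.05 in limma over all 24016 probe sets, where 0.0167% passed. At an unadjusted p under 0.05, 7 of the 17 were higher, against 9.23% of varying and 5.35% of all probe sets, and 1 was lower, against 10.7% and 6.07%. By sign alone, 16 of the 17 were higher and 1 was lower, while 47.5% of all varying probe sets had a positive difference. Probe sets of 1 gene share their transcript, so these counts are not of independent measures. Counted once per gene, at the probe set with the highest mean, 8 of 9 genes were higher (4 with an unadjusted p under 0.05), and the median of the 9 differences was 0.16, against -0.01 over the varying probe sets. The 17 differences with their intervals are set out by role in the plot of differences.

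**Figure D1:**
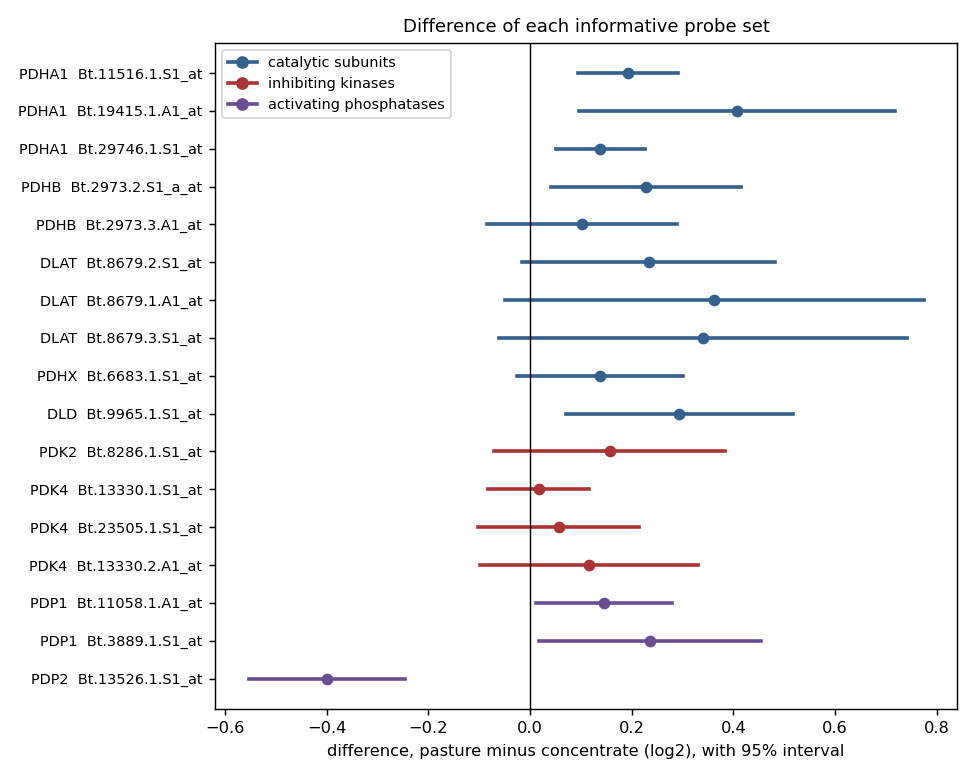
Difference in log2 expression (horizontal axis, outdoor/pasture-fed minus indoor/concentrate-fed) of the 17 informative probe sets (vertical axis), with the 95% interval from limma, coloured by role. Subunits lie to the right of 0, from 0.10 to 0.41, the kinases lie between 0.02 and 0.16 with intervals that reach below 0, and the *PDP2* probe set is the sole one on the left, at -0.40.

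Among the subunits, *PDHA1*, the catalytic alpha chain of E1 and the chain that the kinases phosphorylate, separated the groups most. The gene lies on chromosome X of the ARS-UCD2.0 assembly from 123763235 to 123786122. At its brightest probe set the outdoor/pasture-fed animals ran from 11.94 to 12.21 with a median of 12.10, and the indoor/concentrate-fed animals from 11.80 to 12.004 with a median of 11.92. Outdoor/pasture-fed animals thus lay above every indoor/concentrate-fed animal in 6 of 7 cases, and replicate 5 of the pasture group was the exception. Mean levels were 12.09 ± 0.09 (SD, n = 7) outdoors against 11.90 ± 0.08 (SD, n = 7) indoors, so the difference was 0.19 (SE 0.05) or 1.14-fold. In limma it had an adjusted p of 0.182 with all probe sets tested and of 0.0894 with the 9623 varying ones, and the two-sided exact permutation p was 0.00233. The other informative probe sets of *PDHA1* gave 0.41 (SE 0.14, adjusted p = 0.300 from limma) and 0.14 (SE 0.04, adjusted p = 0.242). Deviations of the animals from their group means at the 3 probe sets correlated with r of 0.59 to 0.82, so that the probe sets ranked the animals in a similar but not identical way.

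*PDHB*, the beta chain of E1 (chromosome 22, 42918475 to 42923888), was higher at pasture at 1 probe set and less clearly so at another. Its levels ran from 12.32 to 12.67 with a median of 12.49 at pasture, and from 11.98 to 12.54 with a median of 12.30 on concentrate. Indoor/concentrate-fed replicates 2 and 3 were lowest, at 12.02 and 11.98, while replicate 4 of that group lay among the pasture animals. The difference was 0.23 (SE 0.09, adjusted p = 0.332 from limma, exact permutation p = 0.0192). The second probe set, much dimmer at a mean of 6.36 at pasture, differed by 0.10 (SE 0.09, unadjusted p = 0.254 from limma), and the correlation of the animals' deviations between both was 0.45.

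*DLAT*, the E2 acetyltransferase that carries the lipoyl arms (chromosome 15, 22340056 to 22374925), showed the widest spread on concentrate. Outdoor/pasture-fed animals ran from 11.48 to 11.83 with a median of 11.74, and indoor/concentrate-fed animals from 11.16 to 11.83 with a median of 11.55. Within the concentrate group, replicates 1, 2 and 3 stood at 11.22, 11.17 and 11.16 and the other 4 animals at 11.55 to 11.83, beside the pasture animals. The 3 probe sets of *DLAT* differed by 0.23 (SE 0.11), 0.36 (SE 0.19) and 0.34 (SE 0.18), with exact permutation p-values from 0.0746 to 0.0932 and intervals that include 0. The SD was 0.28 on concentrate and 0.13 at pasture, 2.11 times as large, and this difference in spread was not tested. At their brightest probe sets the other genes also had a larger SD on concentrate, 1.10 (*PDHX*) to 2.10 (*PDK4*) times that at pasture, except *PDHA1* (0.84).

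*PDHX* encodes the protein that binds E3 to the core (chromosome 15, 65427257 to 65502625). It ranged from 11.51 to 11.85 with a median of 11.56 at pasture, and from 11.26 to 11.70 with a median of 11.54 on concentrate. The groups overlapped over most of their range, with a difference of 0.14 (SE 0.08, 95% interval -0.03 to 0.30). *DLD*, the E3 lipoamide dehydrogenase that other dehydrogenase complexes share (chromosome 4, 48953232 to 48979994), ranged from 9.84 to 10.25 with a median of 10.10 at pasture, and from 9.41 to 10.11 with a median of 9.81 on concentrate. Every outdoor/pasture-fed animal was above the concentrate median for *DLD*, and 3 were above all indoor/concentrate-fed animals. Its difference was 0.29 (SE 0.10), a fold of 1.23, with an adjusted p of 0.299 from limma and an exact permutation p of 0.0181.

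**Figure D2:**
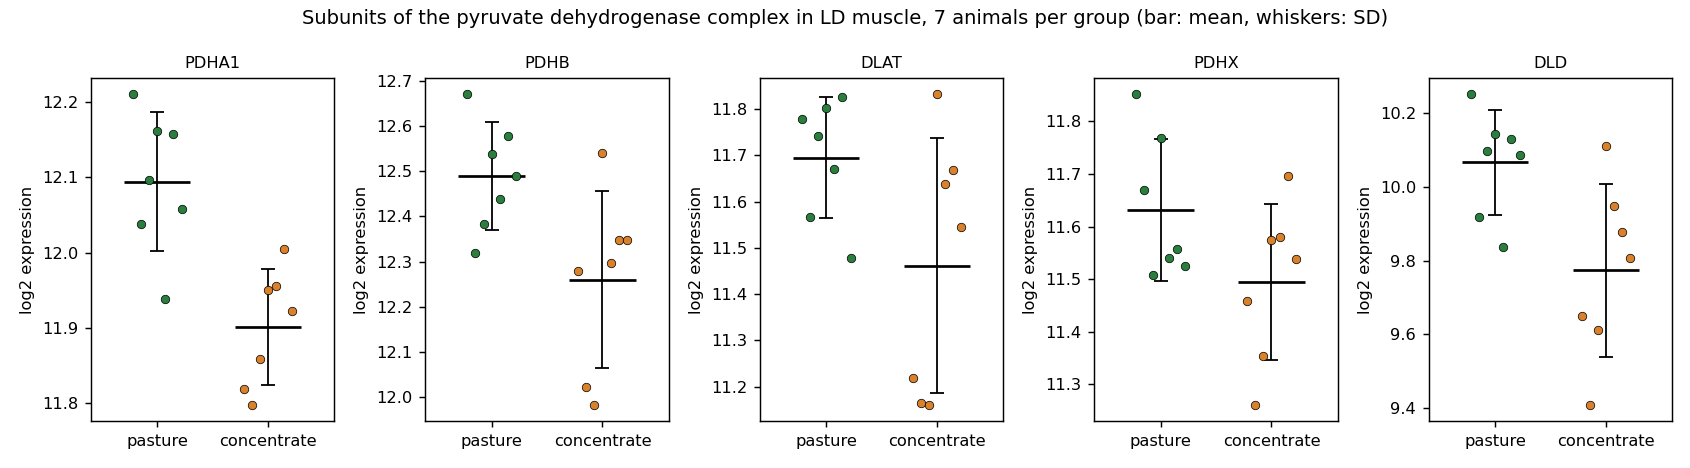
Log2 expression (vertical axes, scaled per gene) of the 5 subunit genes, each at the probe set with the highest mean, in 7 animals at pasture (green) and 7 on concentrate (orange), with replicates 1 to 7 from left to right within a group, the mean (bar) and the SD (whiskers). *PDHA1* shows the least overlap, and for *DLAT* 3 of the indoor/concentrate-fed animals lie near 11.2 while the other 4 lie beside the pasture animals.

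Of the inhibiting kinases, *PDK2* and *PDK4* had no probe set at an unadjusted p under 0.05 in limma, and *PDK3* could not be measured. *PDK4* is the kinase that muscle is known to make in fasting and when fatty acids are the main fuel (chromosome 4, 12881889 to 12895362). It ranged from 12.87 to 13.02 with a median of 12.97 at pasture, and from 12.75 to 13.07 with a median of 12.95 on concentrate, so that the pasture values lay inside the concentrate range. The difference was 0.02 (SE 0.05, adjusted p = 0.930 from limma, exact permutation p = 0.726). At this probe set the 95% interval was -0.08 to 0.12, a small fraction of a doubling, and FARMS, the summary method behind these values, can compress changes. Without indoor/concentrate-fed replicate 4, the lowest of all 14 animals at 12.75, the difference was -0.01. The further probe sets of *PDK4* differed by 0.06 (SE 0.07, 95% interval -0.10 to 0.21) and 0.12 (SE 0.10, 95% interval -0.10 to 0.33). They bound a difference of the gene less closely. The 3 probe sets ranked the animals alike, with r of 0.90 to 0.94 between their deviations.

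*PDK2*, the kinase most widely made across tissues (chromosome 19, 36544866 to 36561135), ranged from 8.24 to 8.73 with a median of 8.46 at pasture, and from 8.03 to 8.64 with a median of 8.32 on concentrate. The groups overlapped, with a difference of 0.16 (SE 0.10, exact permutation p = 0.163). For *PDK3* (chromosome X, 118815748 to 118898248) no difference could be measured, for the reason given above.

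The probe sets named for the phosphatases had differences of opposite sign, and none passed over all probe sets. *PDP1* is the calcium-responsive phosphatase that is the main form in muscle (chromosome 14, 70358930 to 70367455). It ranged from 10.64 to 10.89 with a median of 10.76 at pasture, and from 10.44 to 10.81 with a median of 10.61 on concentrate. All 7 outdoor/pasture-fed animals were above the concentrate median, and the ranges overlapped. The difference was 0.15 (SE 0.06, adjusted p = 0.392 from limma, exact permutation p = 0.0402), and a second, dimmer probe set gave 0.24 (SE 0.10, adjusted p = 0.394).

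The probe set named *PDP2* was lower in every outdoor/pasture-fed animal than in any indoor/concentrate-fed animal. Levels ran from 6.80 to 7.11 with a median of 6.94 at pasture, and from 7.22 to 7.62 with a median of 7.32 on concentrate. The probe set is thus dim, near the array medians of 6.77 to 6.84 at pasture and 6.78 to 6.80 on concentrate. It was the sole informative probe set of the 17 with no overlap of the groups, an outcome seen in 0.322% of varying probe sets for lower and 0.488% for higher levels at pasture. Mean levels were 6.95 ± 0.12 (SD, n = 7) outdoors against 7.35 ± 0.15 (SD, n = 7) indoors, so the difference was -0.40 (SE 0.07), or 1.32-fold more on concentrate. In limma it had an adjusted p of 0.115 with all probe sets tested and of 0.0286 with the varying ones, where 0.343% passed, and the exact permutation p of 0.000583 is the smallest that 7 against 7 animals allow. The study picked this gene for its difference on these same arrays, and the result therefore adds no evidence of its own.

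Which transcript that probe set reads is not settled. The array annotation used here does not list it, the study names it *PDP2*, and the transcript accession that the study gives beside it belongs to *PDP1* in RefSeq. The *PDP2* gene itself lies on chromosome 18 from 34587616 to 34594769. The pair of annotated *PDP1* probe sets has differences of the opposite sign.

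Each of the 5 subunits was also set against *PDK4* on the same array, a choice made after seeing the data. The subunit differences exceeded that of *PDK4* by 0.12 (*PDHX*) to 0.28 (*DLD*), with permutation p-values adjusted over the 5 pairs of 0.117 for *PDHA1* and 0.152 to 0.249 for the others, so a difference in response between subunits and *PDK4* was not established.

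**Figure D3:**
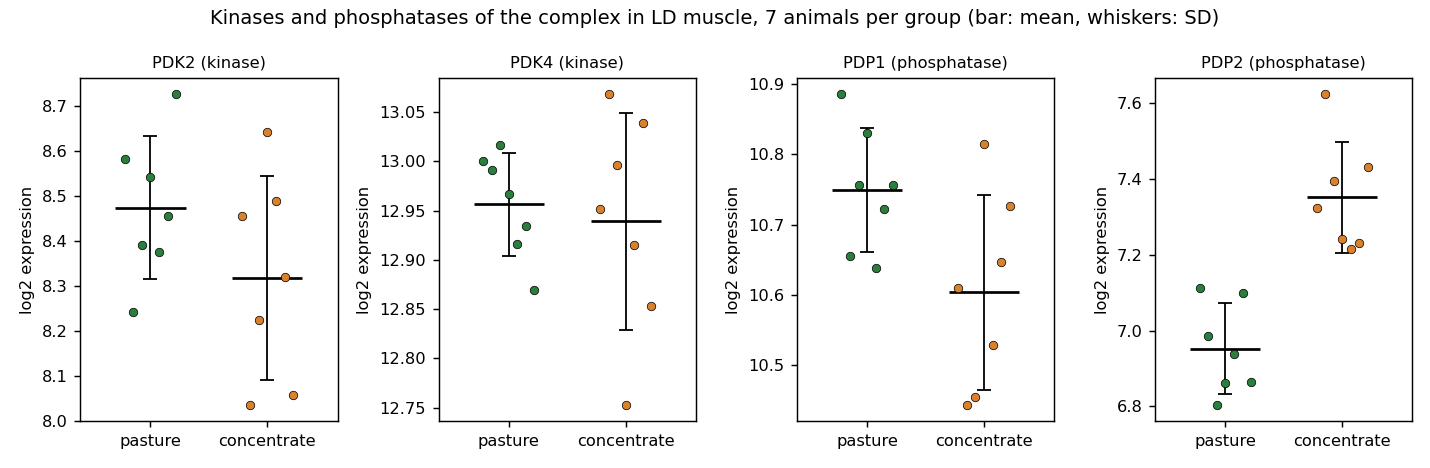
Log2 expression (vertical axes, scaled per gene) of 2 kinase genes and 2 phosphatase genes at the probe set with the highest mean, in 7 animals at pasture (green) and 7 on concentrate (orange), with the mean (bar) and the SD (whiskers). The groups overlap for *PDK2*, *PDK4* and *PDP1*, and for the *PDP2* probe set the highest pasture value of 7.11 is below the lowest concentrate value of 7.22.

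Markers of other cells also differed between the groups. For the marker counts at an unadjusted p under 0.05, the shares of all varying probe sets were 9.23% higher at pasture and 10.7% lower. Of 6 endothelial markers, the 4 that varied (*PECAM1*, *CDH5*, *TEK*, *KDR*) were all higher at pasture at an unadjusted p under 0.05, by 0.23 to 0.59, and *VWF* and *EGFL7* were listed at 1 value throughout. The mean level of the 6 ran from 8.44 to 8.70 at pasture and from 8.03 to 8.41 on concentrate, with no overlap. Within groups, the correlation of that mean with the 5 subunits had r of 0.22 to 0.56, and none passed over the 45 relations with marker means and controls (adjusted permutation p = 0.284 to 0.623). With that mean as a covariate in limma, none of the 7 probe sets kept an unadjusted p under 0.05 in the direction of pasture. There the difference was 0.15 (SE 0.08) for *PDHA1*, 0.10 (SE 0.16) for *DLD*, 0.05 (SE 0.13) for *PDHB* and -0.06 (SE 0.16) for *DLAT*, and -0.33 (SE 0.12) for *PDP2*, which alone kept an unadjusted p under 0.05. Because the endothelial mean itself splits the groups, its part and that of the production system cannot be told apart. In whole muscle, fewer cells of a type and less RNA per cell cannot be told apart either.

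Markers of slow fibres, which are rich in mitochondria, were higher at pasture for 6 of the 6 that varied, 1 of them (*ATP2A2*, at 0.16) at an unadjusted p under 0.05. Their mean ranged from 13.41 to 13.62 at pasture and from 12.89 to 13.57 on concentrate. With this mean as a covariate 5 of the 7 probe sets stayed at an unadjusted p under 0.05, those of *PDHA1*, *PDHB* and *DLD*, and *PDP1* did not (0.11, SE 0.06). Of 5 varying markers of fast fibres, *MYH1* was higher, at 0.14, at an unadjusted p under 0.05. *TNNI2* (-0.07), *TNNC2* (-0.01) and *ACTN3* (-0.04) were lower at that threshold, by small amounts at levels of 13.2 to 14.4. The 5 adipocyte markers measured had differences from -0.39 to -0.07, none at that threshold, and neither did any of the varying markers of leukocytes (4), red blood cells (2) or fibroblasts (5). The muscle genes *ACTA1*, *CKM*, *MYL1* and *MB* were listed at 13.1 to 14.1 on every array, and *DES* differed by -0.06.

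Among the animals of a group, the subunits tended to move up and down together. For this, each gene was taken at its brightest probe set and each animal as its deviation from its group mean, so that the mean difference between the systems is removed. All 10 pairs of subunits correlated positively over the 14 animals, with Pearson's r from 0.66 to 0.85. Every one of the 10 had an adjusted permutation p under 0.05 over the 36 pairs of 9 genes. Without the 2 animals farthest from the median of 1 gene of the pair, r ran from 0.51 to 0.81. The pairs of *PDHX* with *DLAT*, *PDHB* and *DLD* fell most, to 0.51, 0.52 and 0.54. At pasture alone, *DLAT* and *PDHX* had r = 0.36. Among the pairs, *PDHB* and *DLD* had r = 0.85 and Spearman's rho = 0.87 (permutation p = 6.7e-04 and 2e-04, adjusted 0.00742 and 0.00300), and r was 0.80 without the 2 animals farthest from the median of *PDHB*. *PDHA1* and *DLD* had r = 0.84 and rho = 0.89 (permutation p = 1.1e-04 and 9e-05, adjusted 0.00360 and 0.00300), with r = 0.77 without such animals and r = 0.95 at pasture and 0.85 on concentrate.

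*DLAT* and *DLD* gave r = 0.84, with 0.49 at pasture and 0.95 on concentrate. Other pairs of subunits also had a higher r on concentrate, such as *DLAT* and *PDHX* (0.36 at pasture and 0.86 on concentrate). The exceptions were *PDHA1* with *PDHB* (0.72 at pasture and 0.68 on concentrate) and with *DLD* (0.95 and 0.85). These differences between the groups were not tested. As a background, deviations of the 9620 varying probe sets of other genes had a median r of -0.07 with *PDHA1*, and 0.894% of them reached its median r of 0.74 with the other subunits. For *DLD* this share was 0.499% and for *PDHB* it was 2.56%.

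The animals that carried this pattern can be named. In the concentrate group, replicates 1, 2 and 3 held the lowest 3 places of their group for all 5 subunits, while replicate 4 was highest for *PDHB*, *DLAT* and *DLD*. In the pasture group, replicates 1 and 4 were among the highest 2 for 4 of the 5 subunits each, and replicate 5 was among the lowest 3 for all 5. Replicate numbers are names and have no order, and no label tells what sets these animals apart. Levels of the array's hybridisation controls, which track the brightness of an array, correlated with the subunits' deviations at r of -0.08 to 0.30 over both groups. At pasture alone these values ran from -0.54 (*DLD*) to 0.10 (*PDHB*), and on concentrate alone from 0.27 (*DLD*) to 0.66 (*PDHA1* and *PDHX*). The difference between the groups was not tested.

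**Figure D4:**
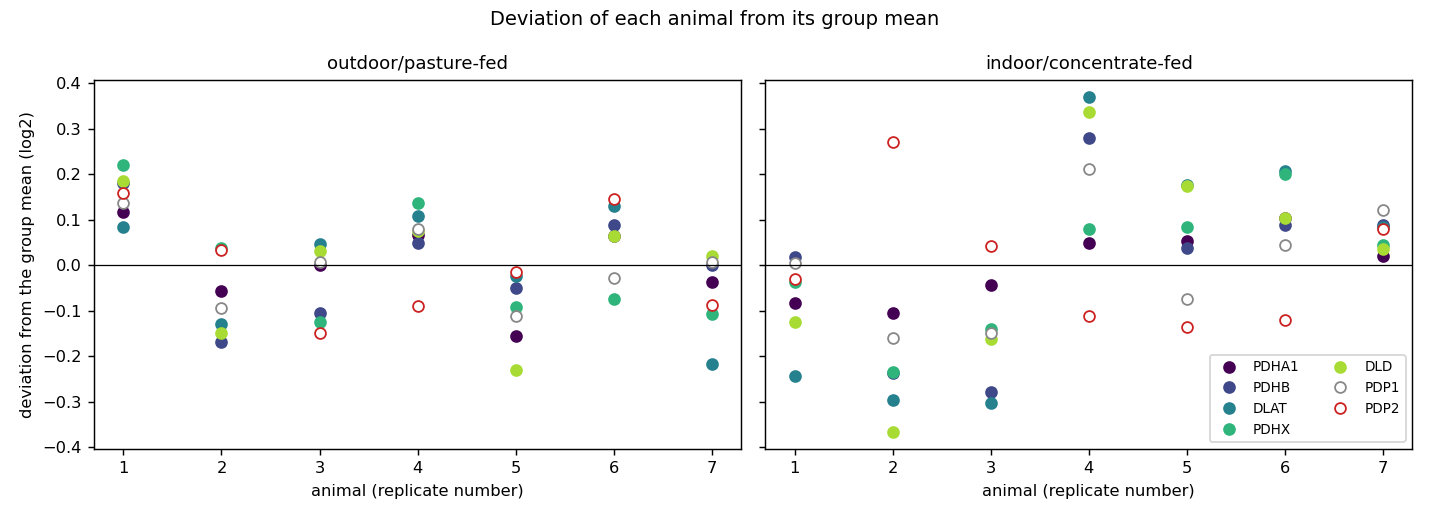
Deviation of each animal from its group mean (vertical axis, log2) for the 5 subunits (filled), *PDP1* (open grey) and the *PDP2* probe set (open red), by replicate number (horizontal axis) in each group. All 5 subunits lie below 0 in indoor/concentrate-fed replicates 2 and 3, where *PDP2* is above 0. The subunits all lie above 0 in indoor/concentrate-fed replicates 4, 5 and 6 and outdoor/pasture-fed replicate 4, where *PDP2* is below 0. In outdoor/pasture-fed replicate 5 the subunits and *PDP2* are all below 0. Subunits lie on both sides of 0 in outdoor/pasture-fed replicates 2, 3, 6 and 7 and in indoor/concentrate-fed replicate 1. In indoor/concentrate-fed replicate 7 and outdoor/pasture-fed replicate 1 the subunits and *PDP2* are all above 0 (*PDP2* at 0.08 and 0.16).

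At its brighter probe set, *PDP1* moved with the subunits among animals. Its r with them ran from 0.66 to 0.88, highest with *PDHB* (rho = 0.81, adjusted permutation p = 0.00360 for r and 0.00921 for rho, r = 0.81 without 2 animals). The pair with *DLAT* did not pass (r = 0.68, adjusted permutation p = 0.0549). Without 2 animals in the same way, the r of *PDP1* with the other subunits ran from 0.50 (*PDHX*) to 0.65 (*DLD*). Its median r with the subunits was 0.68, which 4.3% of the varying probe sets of other genes reached. Deviations at the brighter and the dimmer probe set of *PDP1* correlated with only r = 0.44 and rho = 0.38, and the dimmer was not set against the subunits. *PDK2* passed with *DLD* for r (r = 0.69, adjusted permutation p = 0.0376), not for rho (adjusted permutation p = 0.0548), and fell to r = 0.43 without the 2 animals farthest from the median, so this relation rests on those animals. In all, 15 of the 36 pairs passed for r, and 14 for both measures.

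*PDK4* and the *PDP2* probe set stood outside this group of genes. The r of *PDK4* with the subunits ran from -0.61 (*PDHB*, rho = -0.41, adjusted permutation p = 0.103) to -0.08 (*PDHA1*), and none passed. On concentrate alone these values were -0.76 to -0.37 and at pasture -0.10 to 0.49. *PDP2* gave r from -0.48 (*DLD*) to -0.19 (*PDHA1*), none of which passed, with -0.84 to -0.68 on concentrate and 0.24 to 0.56 at pasture. With 7 animals a group and no test of the difference, these opposite signs are given as values only. The matrix of correlations shows a block of 6 genes, the subunits and *PDP1*, beside which *PDK4* and *PDP2* are negative.

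**Figure D5:**
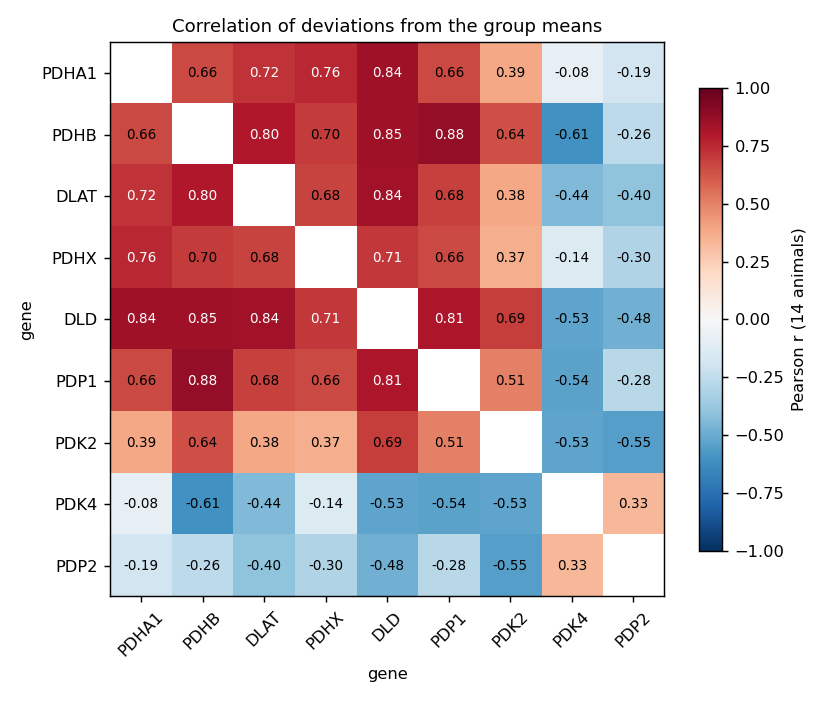
Pearson's r (colour and number) between the deviations of 14 animals from their group means for each pair of 9 genes (both axes), each at the probe set with the highest mean. The 5 subunits and *PDP1* correlate at 0.66 to 0.88 with one another, and *PDK4* and *PDP2* are negative with every gene other than each other.

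The genes whose deviations were most like those of *PDK4* were *SELENOT* (r = 0.83), a selenoprotein of the endoplasmic reticulum, *HP1BP3* (0.82), a histone H1-related chromatin protein, the antiproliferative gene *TOB2* (0.79), *SMG1* (0.79), a kinase of nonsense-mediated decay, and *SEC11A* (0.76), a signal peptidase subunit. For the *PDP2* probe set they were *RTCB* (0.92), an RNA ligase of tRNA splicing, *RNF181* (0.89), a ubiquitin ligase, *LNX2* (0.88), another ubiquitin ligase, *RAN* (0.87), the GTPase of nuclear transport, and *ACOT8* (0.87), a peroxisomal thioesterase. Likeness is Pearson's r over 14 animals among 4910 and 4912 probe sets with 1 symbol and an SD above 0.1. These are the top of long rankings and carry no test.

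The mean of 6 general mitochondrial genes (*COX4I1*, *VDAC1*, *HSPD1*, *TOMM40*, *IMMT* and *SDHA*) correlated with *PDHA1* at r = 0.59 and with *PDP1* at r = 0.63, and over 45 relations with marker means and controls neither passed (adjusted permutation p = 0.218 for both). In that family, the closest relation by r was that of *PDK4* with the mean of fast fibre markers, at r = -0.77 and rho = -0.75 (permutation p = 0.00264 and 0.00474, adjusted 0.119 and 0.0711). It was -0.81 at pasture and -0.78 on concentrate, and -0.66 without the 2 animals farthest from the median, and it did not pass the correction. The fast fibre mean moved little, with an SD of 0.02 in each group at a level of 13.88, and 5 of its 7 genes varied. Slow fibre markers gave r of 0.44 to 0.67 with the subunits (adjusted permutation p = 0.218 to 0.371). By rank these relations were closer, with rho from 0.53 (*PDHA1*) to 0.78 (*DLAT*). *DLAT* and *PDHX* (rho = 0.75) had the smallest adjusted permutation p for rho in that family, 0.0673, which did not pass either.

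Around the complex, no gene of 7 pathway lists passed an adjusted p of 0.05 in limma. As a scale for their counts at an unadjusted p under 0.05, 9.23% of varying probe sets were higher at pasture and 10.7% lower. Among 11 genes of pyruvate transport and other fates of pyruvate, 5 were higher and 6 lower at pasture, with a median difference of -0.01, and 2 were higher at an unadjusted p under 0.05. These were *SLC16A3*, the lactate exporter of glycolytic muscle, at 10.52 ± 0.27 (SD, n = 7) outdoors against 9.81 ± 0.50 (SD, n = 7) indoors (0.71, SE 0.21), and *GPT2*, the mitochondrial alanine aminotransferase (0.22, SE 0.10). The malic enzyme *ME1*, next by p, differed by -0.05 (SE 0.02). The mitochondrial pyruvate carrier genes *MPC1* and *MPC2*, named after their values were seen, differed by 0.08 (SE 0.07) and -0.04 (SE 0.16).

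Of 8 varying genes for the lipoate, iron-sulfur and thiamine cofactors, 5 were higher and 3 lower, with a median of 0.06. *NDUFAB1*, the mitochondrial acyl carrier protein on which lipoate is made, differed by 0.11 (SE 0.03, exact permutation p = 0.00991), the ketoacyl synthase *OXSM* by 0.37 (SE 0.19) and the lipoyl synthase *LIAS* by 0.16 (SE 0.09). In the related oxoacid dehydrogenase complexes 5 of 7 varying genes were higher, none at an unadjusted p under 0.05, with a median of 0.07. *OGDH*, E1 of the oxoglutarate complex, differed by 0.16 (SE 0.08), and the E1 chains of the branched-chain complex by 0.14 (SE 0.08, *BCKDHA*) and 0.07 (SE 0.06, *BCKDHB*).

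Genes that use or pass on acetyl-CoA were higher in 5 of 7 varying cases, with a median of 0.04. *SLC25A20*, the carnitine-acylcarnitine carrier, differed by 0.14 (SE 0.04, exact permutation p = 0.00117, adjusted p = 0.218 from limma) and the thiolase *ACAT1* by 0.36 (SE 0.15). Citrate synthase, *CS*, which takes the acetyl group into the cycle, differed by 0.04 (SE 0.02). Of 9 transcription factors and coactivators tied to the kinase genes, 7 were lower and 2 higher, with a median of -0.18. The fatty acid receptor *PPARA* differed by -0.18 (SE 0.08), its partner *RXRA* by -0.12 (SE 0.06) and *CEBPB* by -0.23 (SE 0.13), the first pair at an unadjusted p under 0.05. Among the 6 general mitochondrial genes 4 were higher and 2 lower, with a median of 0.08, and *COX4I1* at 0.13 (SE 0.06), *SDHA* at 0.17 (SE 0.07) and *TOMM40* at -0.10 (SE 0.07) had the smallest p. The last list, other regulators of the complex, held only *PDPR*, the regulatory subunit of the phosphatase, which was listed at 5.99 on every array, and *PDK1*, for which no probe set was found by name.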

How the data were processed

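The deposited values are log2 expression per probe set. According to the methods, the authors read 14 Affymetrix Bovine arrays with simpleaffy, quantile normalised them and summarised each probe set with qFarms (FARMS). Their filter for informative probe sets was not applied to the deposited table. No further normalisation was added. After leaving out 112 control probe sets, limma 3.58.1 (lmFit, eBayes) under R 4.3.3 was run on 24016 (Benjamini-Hochberg, 0.05) and tested on simulated data. Varying probe sets have an SD above 0.01 over the 14 arrays. Exact permutation tests are two-sided over 3432 assignments. Correlations were permuted within groups (100000 resamples). The number of arrays limits precision, and levels are not compared between probe sets.

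Gene names come from the array annotation (13292 probe sets with 1 symbol, 86 with several, 10638 with none), and locations from RefSeq's ARS-UCD2.0 table. The identifiers of 9 of the 10 genes matched between them, and that of *PDP2* could not be compared. Genes in lists are taken at the probe set with the highest mean. Members and lists were chosen with earlier results of these data known. Named are all members, per list the genes past the threshold (up to 6) or else the 3 with the smallest p, and the 5 genes most like *PDK4* and *PDP2*. Markers named beside the subunits are those at an unadjusted p under 0.05 and the defining genes. Tried as alternatives were filters by SD (0.01, 0.1) and mean, trended and robust priors, renewed quantile normalisation, centring on medians, array weights, a replicate block, leaving out each array and, added after seeing the data, 4 covariates (the hybridisation controls and the means of slow fibre, endothelial and mitochondrial genes).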

Additional observations from a re-analysis of the deposited data

Results flagged for a closer look

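For the dim probe set of *PDHB*, outdoor/pasture-fed replicate 7 stood apart from its group at 6.05, with the next lowest animal at 6.35. It was the only one of 34 sets of 7 animals (17 probe sets in each of both groups) in which an animal was that far from the others, and chance alone marks about 1 in 20 of such sets. At the brighter probe set of *PDHB* the same animal had 12.49, the middle value of its group.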

How the results depend on the processing

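The direction of the *PDP2* difference held under all 13 other settings and on leaving out each array, from -0.43 to -0.33. Its adjusted p passed only with filters on SD (0.0286 above 0.01 and 0.0328 above 0.1, at a difference of -0.40, and then 1 of the member probe sets passed), where fewer probe sets are tested. Without single arrays it ran from -0.43 to -0.35 (adjusted p = 0.107 to 0.263 from limma), and no member passed (0 in each case). Its adjusted p was highest, at 0.9999, with the endothelial mean as covariate. The *PDK4* difference ran from -0.0141 to 0.0385 on leaving out arrays, negative only without indoor/concentrate-fed replicate 4. The count of members higher at an unadjusted p under 0.05 was 7, with 5 to 9 on leaving out arrays (9 without indoor/concentrate-fed replicate 4 or 6), and 0 with the endothelial mean as covariate. Under that covariate the dim *PDHB* probe set (-0.0918) and those of *DLAT* (-0.0626, -0.138 and -0.00288) changed sign. The count lower was 1 throughout. The cause was not tested.

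Over all probe sets 4 passed. The count was 33 above an SD of 0.01, 37 above 0.1, 17 above the median level, 7 with centring on medians, 17 with array weights, 1 with the hybridisation controls or the slow fibre mean, 0 with the endothelial mean and 8 with the mitochondrial mean as covariate. Leaving out an array gave 1 (at pasture replicate 1, 3, 4, 5 or 7, on concentrate replicate 3) to 8 (at pasture replicate 2). With the replicate number as a block 2 passed, 6 members were higher and 1 lower at an unadjusted p under 0.05, *PDP2* stood at -0.40 (adjusted p = 0.304 from limma) and *PDK4* at 0.02. Nothing in the labels says that equal numbers pair animals. Deviations of equal numbers correlated at -0.18 to 0.24, over 0.1 in 2 of 7. Probe sets listed at 1 value were left out here, and the filters on mean and on an SD above 0.1 leave no value for the dim *PDHB* and the main *PDK4* probe set.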
